A study of Mus musculus with 16 samples.

Results

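The 9 genes described here are targets and ligands of transforming growth factor beta (TGF-beta) and bone morphogenetic protein (BMP) signalling. They comprise the inhibitors of differentiation Id1, Id2, Id3 and Id4, the inhibitory Smads Smad6 and Smad7, the Ski-like co-repressor Skil, and the ligands Tgfb2 and Tgfb3. The genes were fixed as a list of names, and each stands for 1 probe, the brightest on average over the 16 arrays. All 9 had a probe on the array, and 8 of them entered the comparisons, out of 17771 genes tested in all. Id4 was well above background on 4 of 16 arrays and was not tested.

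The cells were HL-1, an established line of mouse atrial cardiomyocytes, and their RNA was measured on 16 one-colour Agilent arrays. Cultures in Claycomb medium received for 6 h either 100 nM dexamethasone together with 10 nM estradiol (Dex+E2), 100 nM dexamethasone (Dex), 10 nM estradiol (E2) or vehicle, which was PBS. Each label had 4 arrays. The series names 4 independent experiments, but no label ties arrays of different treatments to one experiment, so p-values measure the spread between these arrays. Every group was the same unmodified line, labelled female, and the results describe that single line in culture. Dexamethasone is a synthetic glucocorticoid that activates the glucocorticoid receptor, and estradiol activates estrogen receptors.

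TGF-beta and BMP ligands bind paired serine/threonine kinase receptors, which phosphorylate receptor Smads. Smad2 and Smad3 carry the TGF-beta and activin signal, and Smad1, Smad5 and Smad9 carry the BMP signal. Both branches join Smad4 and enter the nucleus. BMP signalling induces the Id genes and Smad6, TGF-beta signalling induces Smad7 and Skil, and Smad6, Smad7 and Skil feed back on the pathway as inhibitors. In the heart these ligands act in atrial and valve development and in fibrosis.

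The start regions of Id2, Id3 and Smad6 are shown because these genes were lower on the arrays with high Per1 within the slides, as described further on; the sequence of Smad7, which shares that pattern, is not shown. Each sequence is from RefSeq (GRCm38.p6) and runs 5′ to 3′ on the gene's strand for 300 bases, ending 50 bases after the start. Capitals mark matches on either strand to GGCGCC, a core of BMP response elements, to the Smad box CAGAC, which reads as GTCTG from the other strand, or to AGAACA, a half-site of the glucocorticoid receptor that reads as TGTTCT from the other strand. The Id2 region lies at chr12:25096043-25096342 on the minus strand, the Id3 region at chr4:136143572-136143871 on the plus strand and the Smad6 region at chr9:64022010-64022309 on the minus strand.
Id2: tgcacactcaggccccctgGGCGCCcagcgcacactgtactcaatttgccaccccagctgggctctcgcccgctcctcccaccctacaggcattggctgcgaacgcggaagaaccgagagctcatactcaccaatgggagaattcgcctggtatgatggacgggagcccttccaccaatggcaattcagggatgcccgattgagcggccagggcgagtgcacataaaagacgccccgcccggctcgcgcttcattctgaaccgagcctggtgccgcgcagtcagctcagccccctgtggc
Id3: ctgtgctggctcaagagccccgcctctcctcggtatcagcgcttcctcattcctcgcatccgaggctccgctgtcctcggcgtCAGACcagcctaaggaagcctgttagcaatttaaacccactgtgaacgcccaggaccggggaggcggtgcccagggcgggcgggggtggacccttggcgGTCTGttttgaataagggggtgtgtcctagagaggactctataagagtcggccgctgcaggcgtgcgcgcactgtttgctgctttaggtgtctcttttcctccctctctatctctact
Smad6: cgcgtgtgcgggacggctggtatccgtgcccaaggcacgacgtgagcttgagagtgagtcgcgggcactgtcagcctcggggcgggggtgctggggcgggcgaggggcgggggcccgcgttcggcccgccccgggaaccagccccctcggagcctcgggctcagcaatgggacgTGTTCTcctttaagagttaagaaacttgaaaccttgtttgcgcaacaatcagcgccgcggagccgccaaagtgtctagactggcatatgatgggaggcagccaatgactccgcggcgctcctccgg
The Id2 region held 1 GGCGCC at position -231 from the start. The Id3 region held CAGAC at -167 and, on the other strand, at -68. The Smad6 region held 1 AGAACA match, on the other strand at -76. Tgfb2, which was higher on the arrays with high Per1 within the slides, held CAGAC at -221 and -204 in its region, not printed here. The Id4 region, also not printed, held GGCGCC at -148. Of 27025 mouse promoters of this length, 11.96% held at least 1 GGCGCC, 49.7% at least 1 CAGAC and 19.0% at least 1 AGAACA. These letters are therefore common and mark no site of binding. The 3 motifs do not overlap one another in these regions.

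A level is the log2 ratio of a probe's signal to the 75th percentile of its array, so that percentile is 0, and levels are not compared between probes. The 75th percentile was 402 to 557 intensity units, 58.6% to 65.6% of probes were well above background, and arrays correlated at 0.973 to 0.997 across genes. The arrays lay on 4 slides, with 2 labels on each slide: vehicle and Dex on slide 1, vehicle and E2 on slide 2, Dex and Dex+E2 on slide 3, and E2 and Dex+E2 on slide 4. All 8 atrial cardiomyocyte markers examined (Nppa, Myh6, Actc1, Tnnt2, Myl7, Myl4, Ryr2 and Gja1) were above background on 16 arrays. All 3 smooth muscle markers, 3 of 5 fibroblast markers, 1 of 4 endothelial markers and 1 of 4 leukocyte markers were also above background on 16 arrays, among them Col1a1, Pdgfra and Dcn of fibroblasts, Kdr of endothelium and Cd68 of leukocytes. Csf1r was above it on 9 arrays and Postn on 1, and Lum, Pecam1, Cdh5, Tie1, Ptprc and Adgre1 on 0.

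Per1, a clock gene that the glucocorticoid receptor induces directly, did not follow the labels. Its levels fell into 2 ranges, 1.75 to 1.99 on 8 arrays and -1.29 to -0.75 on the other 8, with the 75th percentile at 402 to 557 and 437 to 517 intensity units on these arrays. The array labelled Dex+E2 3 had a Per1 level of -1.11 and that labelled Dex 3 a level of -1.15, in the low range. The array labelled E2 4 had a level of 1.95 and that labelled Vehicle 4 a level of 1.75, in the high range. Groups below follow the labels, no array was moved, and the differences named for each gene are also given without these 4 arrays.

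**Figure D1:**
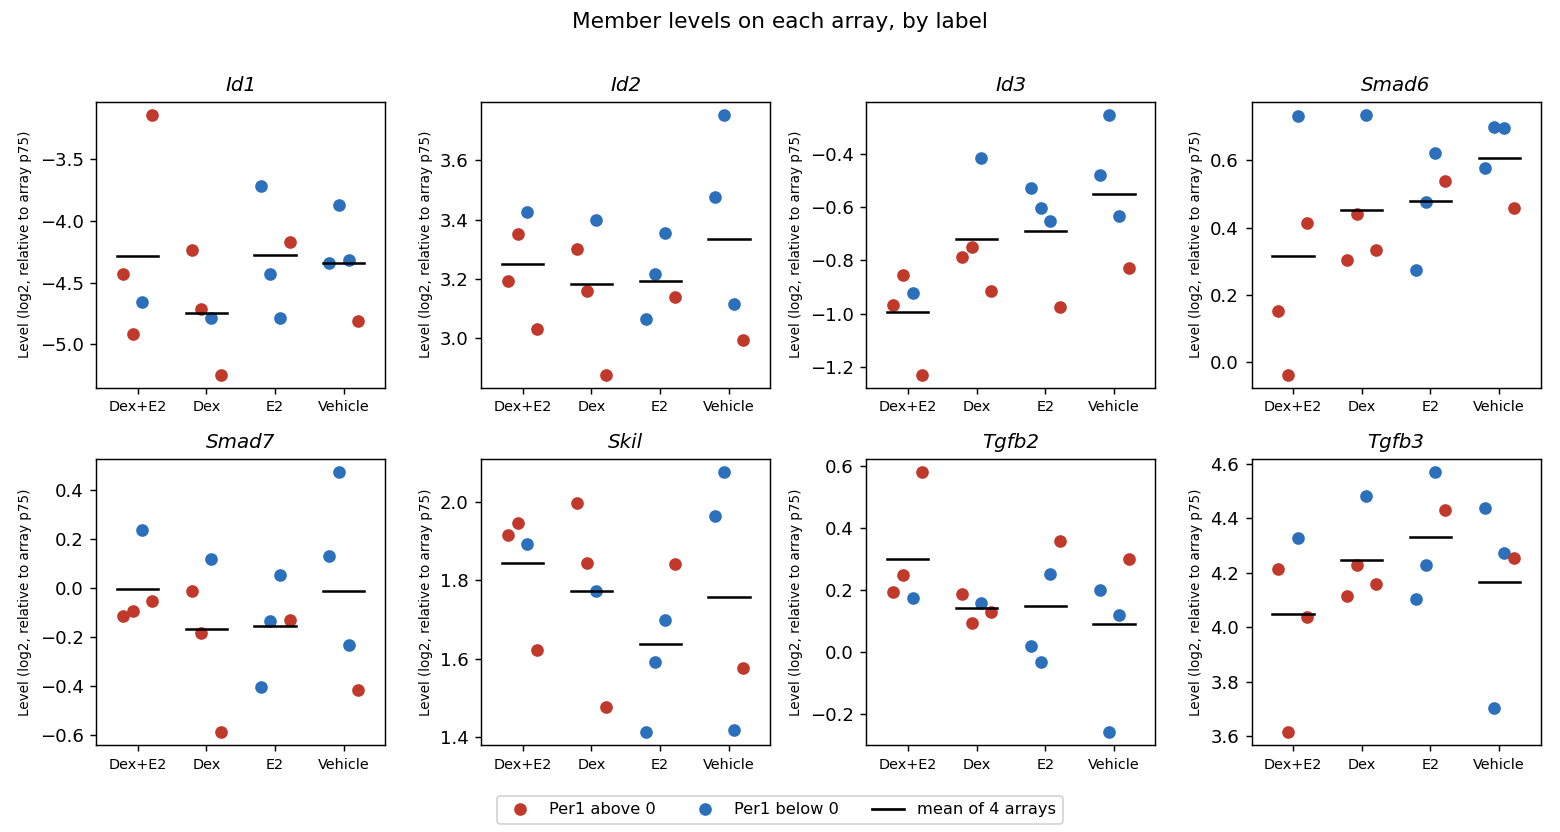
Levels of the 8 tested genes on each of 16 arrays, as log2 relative to the array's 75th percentile (p75), for the labels Dex+E2, Dex, E2 and vehicle. Points are arrays, red where Per1 was above 0 and blue where it was below, and black lines are means of 4 arrays; the Id3 means are -0.99 for Dex+E2 and -0.55 for vehicle, and no vehicle array reaches the Dex+E2 range.

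None of the 8 genes passed the test in any of the 8 comparisons between labels, under limma with Benjamini-Hochberg adjustment and a threshold of 0.05. The same held for 0 of 17771 genes in every comparison, a background of 0%. At an unadjusted p under 0.05, Id3 was the single member to pass, in Dex+E2 against vehicle, in Dex+E2 against E2 and in the average effect of Dex. The matching background was 5.57%, 4.02% and 10% of all genes (989, 714 and 1779 genes). In the other comparisons 0 of 8 members passed at that unadjusted level, against 10.9% of all genes for Dex against vehicle (1933), 3.84% for E2 against vehicle (682), 3.19% for Dex+E2 against Dex (567), 3.72% for the interaction (661) and 3.67% for the average effect of E2 (652).

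Id3 encodes a helix-loop-helix protein without a DNA-binding domain that sequesters basic helix-loop-helix factors, and it is among the classical early BMP targets. Its levels were -0.97, -0.85, -0.92 and -1.23 on the Dex+E2 arrays, -0.79, -0.75, -0.42 and -0.92 on the Dex arrays, -0.53, -0.60, -0.65 and -0.98 on the E2 arrays and -0.48, -0.25, -0.63 and -0.83 on the vehicle arrays. All 4 Dex+E2 arrays lay below all 4 vehicle arrays, while the Dex and E2 arrays overlapped both. No slide held both Dex+E2 and vehicle arrays, so slide and label cannot be told apart in this separation. The limma difference was -0.45 ± 0.14 for Dex+E2 minus vehicle (SE, unadjusted p = 0.00604, adjusted p = 0.715). With slide as a block it was -0.37 ± 0.19 (limma unadjusted p = 0.0687, adjusted p = 0.922). Across the 8 members Id3 was the only one whose Dex+E2 and vehicle arrays did not overlap, against a background of 1.13% of all genes lower without overlap and 0.726% higher. No member was without overlap in the other 4 comparisons between a pair of labels, where 0.715% to 3.43% of all genes were without overlap in one direction. The average effect of Dex on Id3 was -0.24 ± 0.10 (adjusted p = 0.492 in limma), and the difference between Dex+E2 and E2 was -0.30 ± 0.14 (adjusted p = 1.00).

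Without the 4 arrays whose Per1 went against their label, 3 arrays of each label remained and Id3 passed the test in 2 comparisons. It was lower in Dex+E2 than in vehicle, with a difference of -0.56 ± 0.12 (limma adjusted p = 0.0317), where 1.11% of all genes were called lower and 2.59% were called in either direction. These labels lay on different slides here too. Id3 was also lower in the average effect of Dex, at -0.39 ± 0.09 (limma adjusted p = 0.0190), where 2.86% of all genes were called lower and 5.53% in either direction. The difference between Dex and vehicle was then -0.36 ± 0.12 (limma adjusted p = 0.141) and that between Dex+E2 and E2 -0.42 ± 0.12 (adjusted p = 0.136), with 2.43% and 1.93% of all genes called, 1.09% and 0.67% called lower. For E2 against vehicle, Dex+E2 against Dex, the interaction and the average effect of E2, 0 of 8 members and 0% of all genes were called without the 4 arrays. These arrays were left out by a measured level, so genes that track Per1 gain from the choice by construction. With all 16 arrays and slide as a block, 0 of 8 members were called, in a background of 0% in 7 comparisons and 0.0338% in the average effect of E2.

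**Figure D2:**
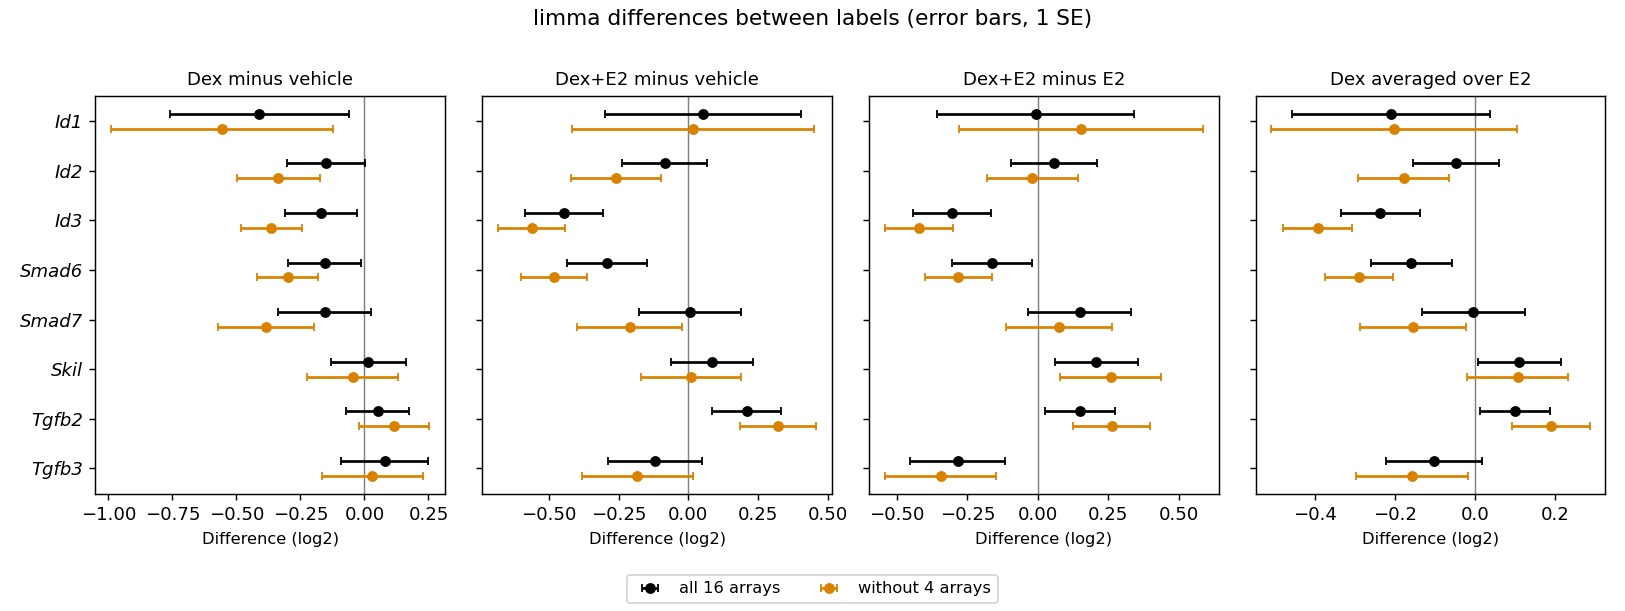
limma differences (log2) for 8 genes in 4 comparisons between labels, with all 16 arrays in black and without the 4 arrays whose Per1 went against their label in orange; error bars are 1 SE. The Id3 difference for Dex+E2 minus vehicle is -0.45 with all arrays and -0.56 without the 4.

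Id2, another BMP-induced inhibitor of differentiation, had levels of 3.19, 3.35, 3.42 and 3.03 on the Dex+E2 arrays, 3.30, 3.16, 3.40 and 2.88 on the Dex arrays, 3.06, 3.22, 3.35 and 3.14 on the E2 arrays and 3.48, 3.75, 3.11 and 2.99 on the vehicle arrays. The 4 labels overlapped, and the vehicle arrays held both the highest level and one of the lowest. Among pairs of labels the largest limma difference was -0.15 ± 0.15, for Dex minus vehicle (adjusted p = 0.719), and the interval of 1 SE reached 0. It was -0.34 ± 0.16 without the 4 arrays (limma adjusted p = 0.278) and -0.31 ± 0.15 with slide as a block (adjusted p = 0.502). A second Id2 probe correlated with the first at 0.62 over 16 arrays. Its difference of means was -0.14 for Dex minus vehicle and -0.27 for Dex+E2 minus vehicle, the largest for that probe. For Dex+E2 minus Dex it was -0.13, where the difference of the first probe was positive.

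Id1, the best known BMP target in many cell types, was a dim gene here, with a mean signal of 23.9 intensity units. Its levels were -4.43, -4.92, -4.66 and -3.14 on the Dex+E2 arrays, -4.24, -4.71, -4.79 and -5.25 on the Dex arrays, -3.72, -4.43, -4.79 and -4.17 on the E2 arrays and -4.34, -3.87, -4.32 and -4.82 on the vehicle arrays. One Dex+E2 array stood above all the others at -3.14, where a second Id1 probe read -4.84. The probes correlated at 0.33 over 16 arrays, so Id1 is uncertain. The limma difference between Dex and vehicle was -0.41 ± 0.35 (adjusted p = 0.665), wide compared with the other members. It was -0.56 ± 0.43 without the 4 arrays and -0.09 ± 0.41 with slide as a block.

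Id4, a further inhibitor of differentiation, was above background on 2 Dex+E2 arrays, 1 Dex array, 0 E2 arrays and 1 vehicle array. Its brighter probe ranged from -8.73 to -3.19 over the 16 arrays, and a second Id4 probe was above background on 0. No fold is given for Id4.

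Smad6, which blocks BMP receptor signalling, had levels of 0.15, -0.04, 0.73 and 0.41 on the Dex+E2 arrays, 0.30, 0.44, 0.74 and 0.33 on the Dex arrays, 0.27, 0.48, 0.62 and 0.54 on the E2 arrays and 0.58, 0.70, 0.70 and 0.46 on the vehicle arrays. The highest Dex+E2 and Dex levels were on the arrays whose Per1 was low. Dex+E2 minus vehicle was -0.29 ± 0.14 (limma adjusted p = 0.715), and -0.48 ± 0.12 without the 4 arrays (limma adjusted p = 0.0626). The average effect of Dex was -0.16 ± 0.10 with all arrays (limma adjusted p = 0.545) and -0.29 ± 0.08 without the 4 (adjusted p = 0.0763), so Smad6 did not pass the threshold in either fit. With slide as a block, Dex+E2 minus vehicle was -0.48 ± 0.17 (limma adjusted p = 0.796). In that fit the average effect was -0.14 ± 0.12 for Dex (limma adjusted p = 0.756) and -0.34 ± 0.12 for E2 (adjusted p = 0.293).

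Smad7, an inhibitory Smad that blocks TGF-beta type I receptors, had levels of -0.11, -0.09, 0.24 and -0.05 on the Dex+E2 arrays, -0.01, -0.18, 0.12 and -0.59 on the Dex arrays, -0.40, -0.13, 0.05 and -0.13 on the E2 arrays and 0.13, 0.47, -0.23 and -0.42 on the vehicle arrays. The SD was 0.16 over the Dex+E2 arrays and 0.40 over the vehicle arrays, which held the highest level of all 16. Dex+E2 minus vehicle was 0.01 ± 0.18 and Dex minus vehicle -0.16 ± 0.18 (limma adjusted p = 0.997 and 0.758). Without the 4 arrays they were -0.21 ± 0.19 and -0.39 ± 0.19 (adjusted p = 0.589 and 0.284), so the first turned negative, and with slide as a block they were -0.04 ± 0.21 and -0.29 ± 0.18.

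Skil, a co-repressor that binds Smad complexes and is itself induced by TGF-beta, had levels of 1.92, 1.94, 1.89 and 1.62 on the Dex+E2 arrays, 2.00, 1.84, 1.77 and 1.48 on the Dex arrays, 1.41, 1.59, 1.70 and 1.84 on the E2 arrays and 1.96, 2.08, 1.42 and 1.58 on the vehicle arrays. All labels overlapped. Its largest limma difference between a pair of labels was 0.21 ± 0.15, for Dex+E2 minus E2 (adjusted p = 1.00), and it was 0.26 ± 0.18 without the 4 arrays. With slide as a block it was 0.04 ± 0.11, and the largest was then Dex+E2 minus Dex, at 0.25 ± 0.11 (limma adjusted p = 0.404). A dimmer second probe correlated with the first at 0.45 over 16 arrays.

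Neither ligand passed the test. Tgfb2, a ligand needed for heart cushion development, had levels of 0.19, 0.25, 0.17 and 0.58 on the Dex+E2 arrays, 0.18, 0.09, 0.16 and 0.13 on the Dex arrays, 0.02, -0.03, 0.25 and 0.36 on the E2 arrays and 0.20, -0.26, 0.12 and 0.30 on the vehicle arrays. The Dex arrays were the closest together, with an SD of 0.04. Its difference between Dex+E2 and vehicle was 0.21 ± 0.12 (limma adjusted p = 0.715), 0.32 ± 0.14 without the 4 arrays (adjusted p = 0.290) and 0.05 ± 0.16 with slide as a block. Tgfb3, a ligand of the same receptors, had levels of 4.21, 3.61, 4.33 and 4.04 on the Dex+E2 arrays, 4.12, 4.23, 4.48 and 4.16 on the Dex arrays, 4.10, 4.23, 4.57 and 4.43 on the E2 arrays and 4.44, 3.70, 4.27 and 4.26 on the vehicle arrays. One Dex+E2 array and one vehicle array were low, at 3.61 and 3.70. The interaction of Dex and E2 for Tgfb3 was -0.36 ± 0.24 (limma adjusted p = 0.999), and -0.38 ± 0.28 without the 4 arrays.

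Over the 8 tested genes, the median difference was -0.15 for Dex minus vehicle, -0.13 for E2 minus vehicle and -0.04 for Dex+E2 minus vehicle, where the median over all genes was -0.03, -0.02 and -0.02. Without the 4 arrays the medians over the 8 genes were -0.32, -0.17 and -0.20, where those over all genes were -0.04, -0.02 and -0.02. These 3 comparisons share the vehicle arrays. With all arrays the median average effect was -0.07 for Dex and -0.02 for E2, against -0.02 and -0.01 over all genes, and -0.17 for Dex and -0.07 for E2 without the 4 arrays, against -0.03 and -0.01.

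Within slides the labels could be compared on the same piece of glass, with 2 arrays a label. On slide 1, where the Per1 of all 4 arrays followed the label, Dex minus vehicle was -0.39 for Id2, -0.40 for Id3, -0.27 for Smad6 and -0.40 for Smad7. The limma adjusted p was 0.263 to 0.313 for these 4 genes, so 0 of 8 members passed, in a background of 0.253% of all genes (45 called). The Dex arrays took the later positions on that slide, so position and label cannot be told apart there. On slides 2, 3 and 4, 0 of 17771 genes passed (0%).

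The 8 arrays with high Per1 (Dex+E2 1, 2 and 4, Dex 1, 2 and 4, E2 4 and Vehicle 4) were then set beside the 8 with low Per1 (Dex+E2 3, Dex 3, E2 1, 2 and 3, and Vehicle 1, 2 and 3). This split rests on a measured level, so differences are descriptions and carry no test. Id3 ranged from -1.23 to -0.75 with a median of -0.89 on Per1-high arrays, against -0.92 to -0.25 with a median of -0.57 on Per1-low arrays. A single Per1-low array, Dex+E2 3 at -0.92, reached into the Per1-high range. Smad6 ranged from -0.04 to 0.54 (median 0.37) on Per1-high arrays, against 0.27 to 0.74 (median 0.66) on Per1-low arrays. The lowest Per1-low array, at 0.27, was E2 1, and the other 7 read 0.48 or more.

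Id2 ranged from 2.88 to 3.35 (median 3.15) on Per1-high arrays and from 3.06 to 3.75 (median 3.38) on Per1-low arrays. Smad7 ranged from -0.59 to -0.01 (median -0.12) on Per1-high arrays, against -0.40 to 0.47 (median 0.09) on Per1-low arrays. Across slides the ranges of both genes overlapped. Tgfb2 ran the other way, from 0.09 to 0.58 (median 0.22) on Per1-high arrays and from -0.26 to 0.25 (median 0.14) on Per1-low arrays. Skil, Tgfb3 and Id1 overlapped almost fully, with differences of means of 0.05, -0.13 and -0.09. In all, 0 of 8 members were without overlap, where 2.07% of all genes were lower and 2.02% higher without overlap.

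**Figure D3:**
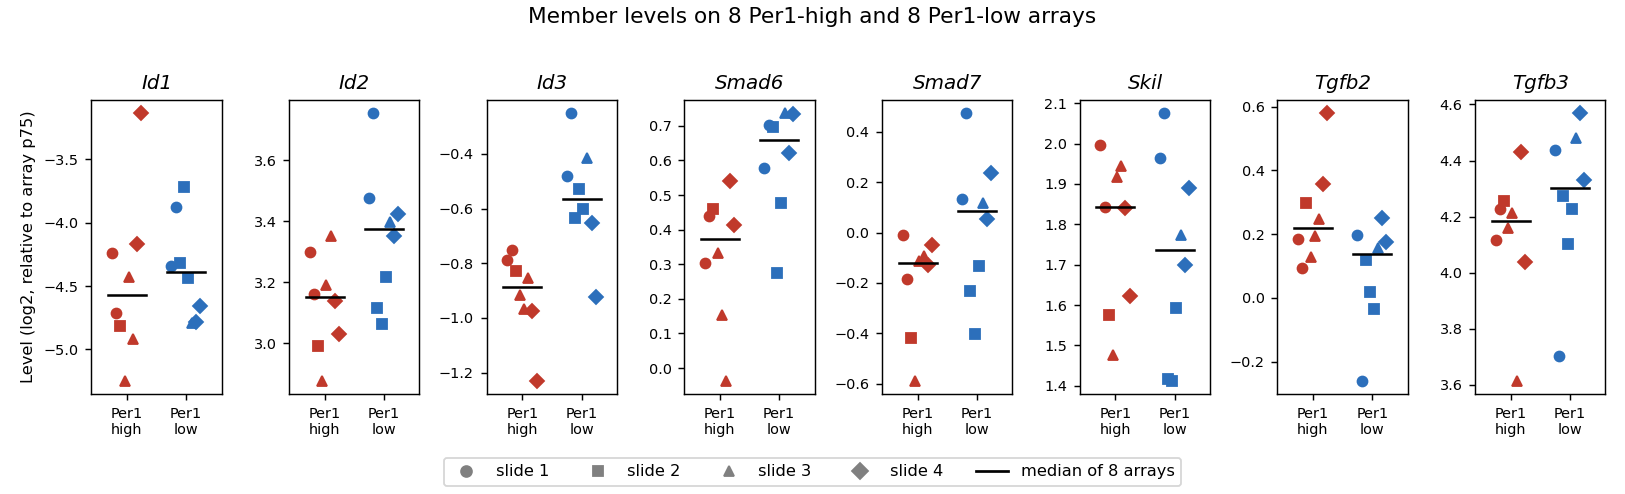
Levels of 8 genes (log2, relative to the array's p75) on 8 Per1-high arrays (red) and 8 Per1-low arrays (blue), with the slide as the shape of the point and the median of 8 arrays as a black line. For Id3 1 blue point, at -0.92, lies within the range of the red points.

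Each slide held arrays of both kinds, so the difference could be taken within slides. On slide 1 the split was the same as Dex against vehicle. Vehicle 4 was the only Per1-high array on slide 2, and Dex 3 was the only Per1-low array on slide 3. The Per1-high minus Per1-low difference of Id3 was -0.40 on slide 1, -0.24 on slide 2, -0.50 on slide 3 and -0.31 on slide 4, and -0.36 in a fit with slide as a block. Smad7 gave -0.40, -0.16, -0.38 and -0.24 on slides 1 to 4, and -0.30 with slide as a block. Id2 gave -0.39, -0.14, -0.26 and -0.30 on slides 1 to 4, and -0.28 with slide as a block. On all 4 slides every Per1-high array lay below every Per1-low array for these 3 genes, which was so for 5.12% of all genes. A second Id2 probe departed from this on slide 4. It read 1.21 on the Per1-high array Dex+E2 4 and 1.19 on the Per1-low array Dex+E2 3.

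Smad6 gave -0.27, -0.02, -0.59 and -0.20 on slides 1 to 4, and its Per1-high arrays all lay below its Per1-low arrays on 3 slides, as did those of 13.2% of all genes on at least 3. The difference was therefore negative on all 4 slides for 4 of 8 members, against 15.6% of all genes. Tgfb2 gave 0.17, 0.26, 0.03 and 0.26, positive on all 4 slides, as were 10.5% of all genes, and its arrays separated on 2 slides, against 21.9% of all genes on at least 2. Id1, Skil and Tgfb3 changed sign between slides, and Id1 ran from -0.66 on slide 2 to 1.07 on slide 4. The slide 4 value included Dex+E2 array 4 at -3.14, where the second Id1 probe read -4.84. By that second probe the Id1 difference over all arrays was -0.25, where the first gave -0.09. With slide as a block the median difference of the 8 genes was -0.19, against -0.02 over all genes.

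**Figure D4:**
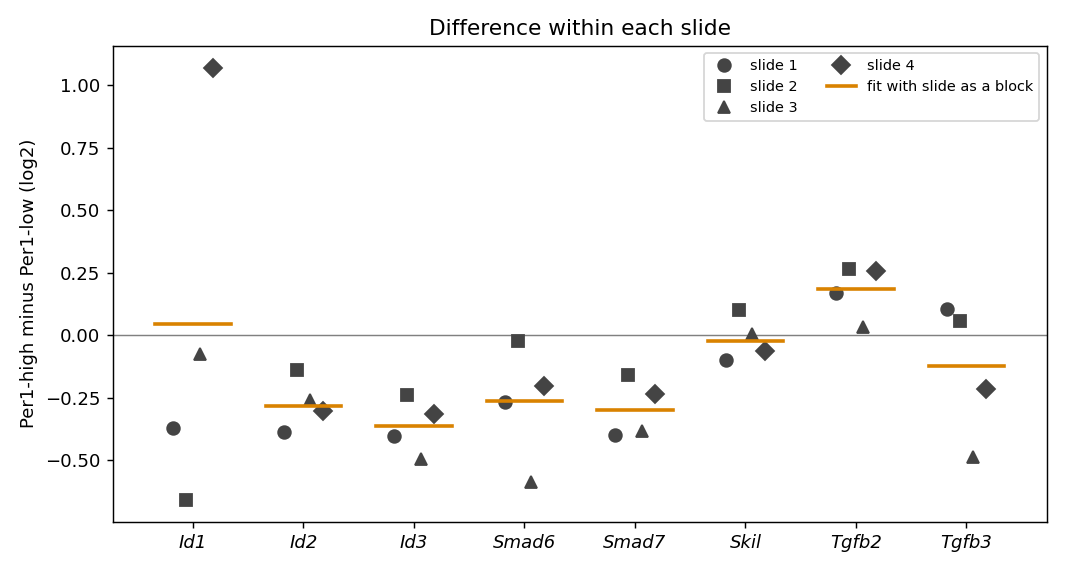
Per1-high minus Per1-low difference (log2) of 8 genes within each of 4 slides (symbols) and in a fit with slide as a block (orange line). Id2, Id3, Smad6 and Smad7 are below 0 on all 4 slides and Tgfb2 is above 0 on all 4.

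Arrays 3 and 4 of a label formed a pair with opposite Per1 on the same slide in every label. Array 4 was below array 3 in all 4 labels for 5 of 8 members (Id2, Id3, Smad6, Smad7 and Tgfb3), against 15.6% of all genes, and above it in all 4 labels for 0 of 8, against 9.66%. The second Id2 probe did not share this in Dex+E2, where array 4 read 1.21 and array 3 read 1.19. For Dex and Dex+E2 the array 3 was the one against its label, and for E2 and vehicle it was the array 4. Array number and Per1 run together in these pairs and cannot be told apart.

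Id2 and Smad7 varied together, with a Pearson correlation of 0.93 over 16 arrays and 0.95 after slide means were removed. Id2 correlated with Skil at 0.75 and with Id3 at 0.61, and Smad7 with Skil at 0.74. Id3 and Tgfb2 were opposed, at -0.78. These correlations describe 16 arrays that share slides and scaling. By the highest correlation over the 16 arrays, the genes most like each member were Ttf1 (0.80) and Ahdc1 (0.79) for Id1, Gtf2ird1 (0.98) and Ube2e3 (0.97) for Id2, and Ddit3 (0.94) and Sh2d3c (0.94) for Id3. They were Mex3b (0.93) and Ttpal (0.89) for Smad6, Nr2f2 (0.95) and Slc35f5 (0.94) for Smad7, and Csnk1a1 (0.97) and Fbxo42 (0.96) for Skil. For the ligands they were Lmnb2 (0.90) and Eprs (0.87) for Tgfb2, and Smarcb1 (0.92) and Zfp784 (0.91) for Tgfb3.

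Of 59 other genes of the pathway, 45 were tested, and 0 of 45 passed in any of the 8 comparisons between labels with all arrays, in the same background of 0%. At an unadjusted limma p under 0.05, between 0 and 3 of 45 passed in each comparison, beside 3.19% to 10.9% of all genes. For Dex minus vehicle it was 2 of 45 beside the 10.9%. In the average effect of Dex all 7 ligands of this list had negative differences, with a median of -0.17, where the median over all genes was -0.02 and 44.3% of all genes were positive. The member ligand Tgfb2 had a positive difference there, of 0.10, and Tgfb3 one of -0.10. Tgfb1 had a difference of -0.17 there and Bmp4, a ligand of BMP receptors, one of -0.15, and neither passed. Bmp2, Bmp10, Tgfbr2 and Nog were not tested because they were above background on too few arrays. Without the 4 arrays, 3 of 45 genes passed for the average effect of Dex, and all were lower. Of all genes, 2.86% were called lower and 5.53% in either direction. These 3 genes are too few to be read as an excess over either share. They were Smad3, a receptor Smad of TGF-beta signalling, at -0.38 (limma adjusted p = 0.00941), Eng, the co-receptor endoglin, at -0.46 (adjusted p = 0.0118), and the ligand Tgfb1 at -0.32 (adjusted p = 0.0498). Eng also passed for Dex+E2 minus E2, at -0.62 (limma adjusted p = 0.0341), as 1 of 45 beside 1.93% of all genes called and 0.67% called lower. As for Id3, the 4 arrays were left out by their Per1 level, so genes that track Per1 gain by construction.

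Between Per1-high and Per1-low arrays, 2 of 45 pathway genes were lower without overlap, Eng and Smurf1, a ubiquitin ligase that targets Smads, beside 2.07% of all genes. Eng ranged from -3.14 to -2.70 on Per1-high arrays and from -2.59 to -2.21 on Per1-low arrays. This separation and the calls of Eng without the 4 arrays rest on the same Per1 levels and are not separate evidence. The level of Smurf1 was -1.05 to -0.65 on Per1-high arrays and -0.64 to -0.40 on Per1-low arrays. The difference was negative on all 4 slides for 14 of 45 genes and positive on all 4 for 3 of 45, where the background was 15.6% and 10.5%.

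Among ligands, Tgfb1 and Bmp4 differed by -0.30 and -0.31 in mean level between Per1-high and Per1-low arrays, and both were negative on every slide. In all, 5 of 7 ligands were negative on every slide, while Nodal, at 0.25, 0.36, 0.37 and 0.13 on slides 1 to 4, was positive on every slide, as was the member ligand Tgfb2. Of the receptors, the type I receptor Bmpr1a (-0.15) was negative on every slide, and Tgfbr1 (-0.01), Acvr1 (-0.01), Bmpr2 (0.06) and the co-receptor Tgfbr3 (0.23) had slides of both signs. Of the Smads, Smad3 (-0.38) was negative on every slide, while Smad1 (0.06), Smad2 (0.06), Smad4 (0.00) and Smad5 (-0.10) were not of one sign. The Smad2 difference was 0.74 on slide 1 and -0.01, -0.35 and -0.42 on slides 2 to 4. Its lowest Per1-low array read -0.50, where the median of the Per1-low arrays was 1.08. Of the regulators, the ubiquitin ligase Smurf2 (-0.16) was negative on every slide, and the co-repressor Ski (-0.14) and the decoy receptor Bambi (0.08) had slides of both signs. Among other targets, the Notch effector Hey1 (-0.26) was negative and the matrix protein gene Ccn2 (0.26) positive on every slide, while Atoh8 (0.12) had slides of both signs.

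**Figure D5:**
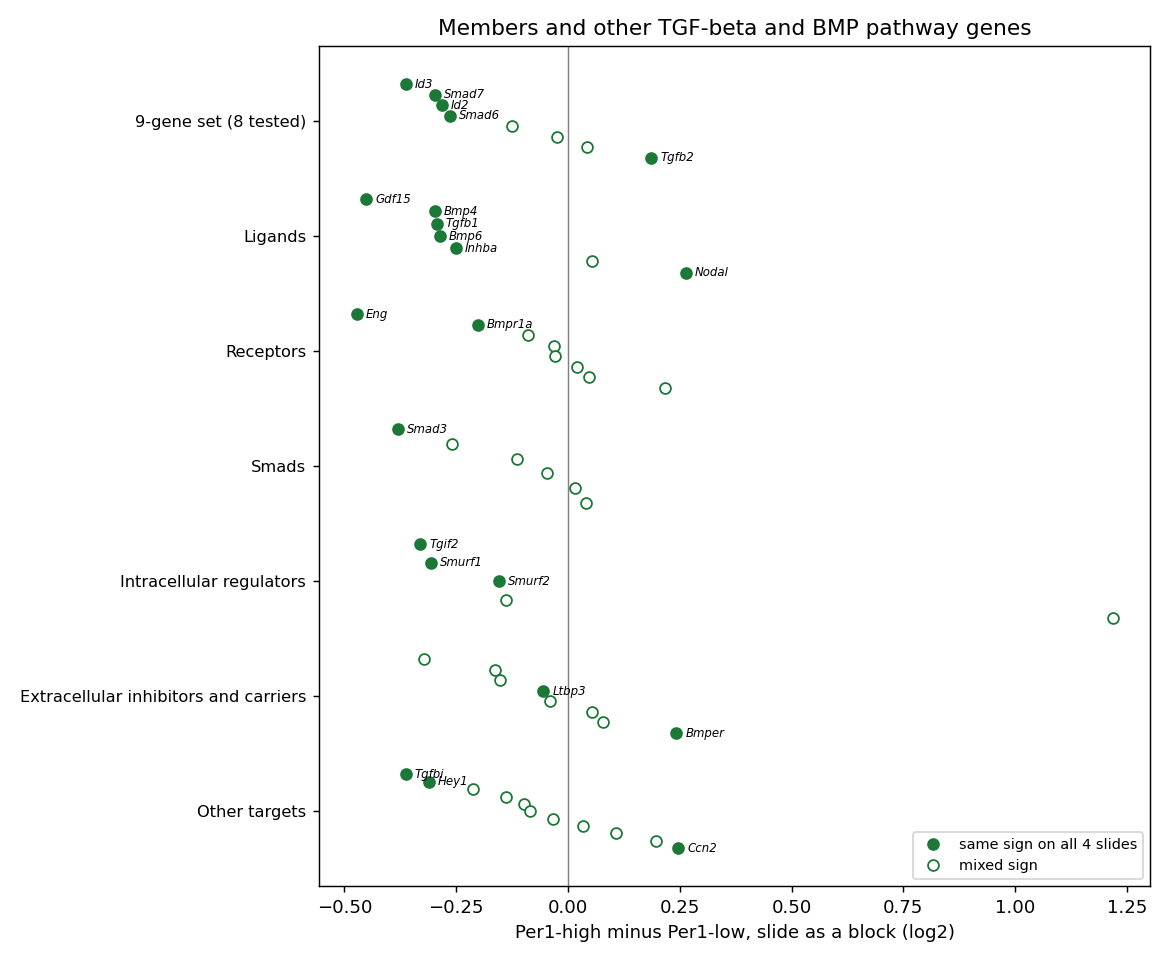
Per1-high minus Per1-low difference (log2) with slide as a block, for the 8 tested genes and 45 other pathway genes grouped by role. Filled points have the same sign on all 4 slides and are named; open points have slides of both signs, and the open point at 1.22 is Ppm1a.

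The value of Ppm1a, a Smad phosphatase named here after its values were seen, rested on slide 1. Its difference was 4.47 on slide 1 and between -0.13 and -0.05 on the others, and the lowest Per1-low array read -5.52 where the median of these arrays was 3.76. Among the markers of other cell types, those above background on 16 arrays differed by -0.09 (Col1a1), 0.00 (Pdgfra), 0.04 (Dcn), 0.72 (Kdr), 0.29 (Myh11), 0.01 (Acta2), 0.09 (Cnn1) and -0.08 (Cd68) between Per1-high and Per1-low arrays. Csf1r, above background on 9 arrays, differed by -0.53, and the cardiomyocyte markers ranged from -0.68 for Gja1 to 0.44 for Myh6. The part of any of these in the differences above was not tested.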

How the data were processed

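Cy3-labelled cRNA of HL-1 cells went onto 16 arrays, per the labels' protocols. Agilent Feature Extraction 12 quantified them, per the submitters' processing notes. The deposited signal is a linear intensity after background subtraction, per the file headers. A deposited table of log2 values had a median of 4.70 in each column, and its 16 columns each matched their own array best (lowest r 0.9998). Its normalization is not given in the sources consulted, and it served as an alternative.

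Spots that were controls or carried an outlier mark were dropped, replicate spots were averaged, and the log2 signal was scaled to the 75th percentile of the array. Of 41174 probes, 28223 were named through RefSeq accessions (GRCm38.p6). A probe was kept where some label had it well above background on all 4 of its arrays, with the brightest probe for each gene, which left 17771 genes, 13030 of them with a symbol. No probe was saturated. The number of arrays limits the precision.

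limma 3.58.1 in R 4.3.3 (lmFit, eBayes with a trend) was fitted to all 16 arrays with the label as the only term, with Benjamini-Hochberg adjustment over all genes at 0.05, two-sided. The step was tested on simulated data. Alternatives were slide as a block, within slides, the replicate block, each array left out, the 4 arrays left out, other filters, background correction and scaling, the deposited table and no variance trend. The files hold no mean signal, so normexp was run on the median signal. Under normexp 55.9% of all genes had an unadjusted limma p under 0.05 for E2 minus vehicle, against 3.84% with the scaling used here. That alternative is therefore unlike the others, and its lack of calls carries little weight.

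The members and lists were chosen with earlier results of these data known. All 9 members are named, with a panel of pathway genes fixed by name, 1 of which is not reported here, pathway genes that passed a test, and the 2 named genes most correlated with each member.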

Additional observations from a re-analysis of the deposited data

Results flagged for a closer look

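Single arrays stood apart from the other 3 of their label in 5 of 36 sets of 4 arrays (8 members and Per1, 4 labels) by Dixon's criterion, which chance meets in about 1 of 20. Skil read 1.62 on Dex+E2 array 4, where the other Dex+E2 arrays read 1.89 to 1.94. The other 4 concerned Per1, on the 4 arrays named earlier as against their label, so they restate that split. The members alone gave 1 flag, which is no excess over chance. Per1 read -1.11 on Dex+E2 array 3, where the others read 1.82 to 1.95. On Dex array 3 it read -1.15, where the others read 1.81 to 1.99. On E2 array 4 it read 1.95, where the others read -1.29 to -0.86, and on vehicle array 4 it read 1.75, where the others read -1.11 to -0.75.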

How the results depend on the processing

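Under the alternatives, 1696 differences of members between labels were recomputed, of which 124 changed sign and 2 passed the threshold. Both were Id3 without the 4 arrays whose Per1 went against their label, so the number of members called became 1 in Dex+E2 against vehicle and 1 in the average effect of Dex. The replicate block called 0 of 8 members in every comparison. Arrays of the same number in different labels correlated at -0.156 to 0.464 in their deviations (median 0.117, 24 pairs), those of other numbers at -0.560 to 0.375 (median -0.0413, 72 pairs), and 9 of 16 correlated best with their own number. Arrays numbered 3 were all Per1-low and those numbered 4 all Per1-high, so these correlations cannot tell pairing from Per1. No label gives pairs and some same-number correlations were below 0, so the block was kept as an alternative. Calls among all genes also appeared without the variance trend (7 genes for the average effect of E2 and 1 for E2 against vehicle) and without Dex array 2 (1 gene for the average effect of Dex).

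The number of members without overlap between Per1-high and Per1-low arrays was 1 with slide as a block and 0 to 1 with 1 array left out (1 without Dex+E2 array 3). For the block, each slide was centred midway between its Per1-high and Per1-low means, so the centring used the split itself. Dex+E2 array 3 was the array that overlapped for Id3, so that result follows from leaving it out. Within slides 1 to 4 the number was 4, 5, 5 and 6, in either direction. Each kind had few arrays on a slide, where levels separate readily by their order alone. No share of all genes is given beside these counts, so they are not read as a result about the members. Of 216 Per1 differences recomputed, 9 changed sign and 5 moved by 1 SD or more. Id2, Id3, Smad6, Smad7 and Tgfb2 kept their sign in all 27 alternatives each. The Id3 difference ranged from -0.50 to -0.24. Id1 was dim, with a mean signal of 23.9 intensity units, which limits its precision.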
